A study of Mus musculus with 24 samples.

Results

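CXC chemokines are small secreted proteins that steer leukocytes, named for the cysteine pair near their start. The account covers the 9 that the array's gene names list as Cxcl1, Cxcl2, Cxcl3, Cxcl9, Cxcl10, Cxcl11, Cxcl12, Cxcl14 and Cxcl16, out of 27821 gene names on the array, with all of their 11 probes. RNA came from RAW264.7 cells, a mouse macrophage-like line derived from a virus-induced tumour, grown with 400 ug/ml of the selection drug G418. One line carried a construct that overexpresses Tbc1d23, a member of the TBC family of Rab GTPase regulators, and the other a construct for the bacterial enzyme chloramphenicol acetyltransferase (CAT), the control. Each line was sampled without LPS (0 h) and after 1, 3 and 5 h of 20 ng/ml LPS, the bacterial ligand of the receptor TLR4, with 3 arrays in each of the 8 groups. The design text calls these biological replicates, there was 1 line per construct, and for the constructs no promoter is given in the sources used here. The comparisons ask whether the Tbc1d23 construct alters the response to LPS. With 1 line per construct, an effect of the construct cannot be told apart from any other difference between the lines.

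TLR4 signals through MyD88 to NF-kB, which drives early inflammatory genes, and through TRIF to interferon-β, whose receptor then switches on interferon-stimulated genes. Cxcl1, Cxcl2 and Cxcl3 bind the receptor Cxcr2 and draw neutrophils, and they are textbook NF-kB targets. Cxcl9, Cxcl10 and Cxcl11 bind Cxcr3 on activated T cells and natural killer cells, and interferons raise them. Cxcl12 is a stromal homing signal read by Cxcr4, Cxcl14 is made without stimulation by many epithelia, and Cxcl16 is a membrane-bound ligand of Cxcr6 that macrophages also use to take up oxidised lipoprotein.

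The stretches before the start sites of the CXCL1-type and interferon-linked genes are shown because these genes are usually told apart by the factors that bind there. RefSeq's promoter table (GRCm38.p6) matched 7 of the 9 genes, without Cxcl11 and Cxcl16. Each line gives the 250 bases before the annotated start, 5′ to 3′ on the gene's strand, with matches to any of 3 motifs in capitals. The motifs were GGGNNNNNCC for NF-kB, GAAANNGAAA for the interferon-stimulated response element (ISRE) and TGANTCA for AP-1, each read on both strands.
Cxcl1: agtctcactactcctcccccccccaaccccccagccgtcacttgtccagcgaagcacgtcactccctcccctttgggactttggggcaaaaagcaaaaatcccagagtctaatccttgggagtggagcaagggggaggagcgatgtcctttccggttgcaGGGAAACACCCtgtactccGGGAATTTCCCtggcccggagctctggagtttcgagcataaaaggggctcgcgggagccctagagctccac
Cxcl2: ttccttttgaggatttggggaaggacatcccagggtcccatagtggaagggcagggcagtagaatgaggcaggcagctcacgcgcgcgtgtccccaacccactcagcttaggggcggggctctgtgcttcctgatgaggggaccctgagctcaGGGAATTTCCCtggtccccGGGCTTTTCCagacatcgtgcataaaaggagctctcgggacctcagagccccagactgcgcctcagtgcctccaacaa
Cxcl3: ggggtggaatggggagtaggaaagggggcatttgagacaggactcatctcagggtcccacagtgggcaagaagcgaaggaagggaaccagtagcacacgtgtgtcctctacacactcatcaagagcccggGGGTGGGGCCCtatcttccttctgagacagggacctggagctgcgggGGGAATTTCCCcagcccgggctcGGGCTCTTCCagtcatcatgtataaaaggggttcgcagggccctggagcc
Cxcl9: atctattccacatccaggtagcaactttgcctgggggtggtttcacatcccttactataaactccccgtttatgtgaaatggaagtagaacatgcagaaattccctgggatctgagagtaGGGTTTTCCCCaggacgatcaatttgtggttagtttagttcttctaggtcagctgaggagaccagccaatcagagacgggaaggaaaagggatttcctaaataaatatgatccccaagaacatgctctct
Cxcl10: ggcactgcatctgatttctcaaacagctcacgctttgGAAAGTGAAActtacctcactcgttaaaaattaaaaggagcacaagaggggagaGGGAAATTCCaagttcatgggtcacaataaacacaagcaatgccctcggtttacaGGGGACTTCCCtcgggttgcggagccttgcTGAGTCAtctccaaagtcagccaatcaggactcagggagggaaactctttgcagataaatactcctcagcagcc
All of these lie on chromosome 5, at chr5:90890995-90891244 (Cxcl1), chr5:90903649-90903898 (Cxcl2) and chr5:90785851-90786100 (Cxcl3) on the plus strand, and at chr5:92328080-92328329 (Cxcl9) and chr5:92348890-92349139 (Cxcl10) on the minus strand. Cxcl1, Cxcl2 and Cxcl3 share the run GGGAATTTCC, which starts 71, 97 and 73 bases before their start sites, and none of these 3 windows holds the ISRE or AP-1 letters. Cxcl10 holds NF-kB matches, an ISRE match that starts 213 bases before the start site and an AP-1 match that starts 74 bases before it. Cxcl9, also interferon-linked, holds 2 NF-kB matches that overlap in a single run, 130 to 120 bases before the start site. It holds neither the ISRE nor the AP-1 letters. Matches to different motifs did not overlap in any member's window, but matches to the same motif could, as in Cxcl9. Over the 32851 RefSeq windows of the same length, 45.8% hold the NF-kB letters, 2.98% the ISRE letters and 6.75% the AP-1 letters, so an NF-kB match of this loose form is common. Among the members without a printed window, Cxcl12 holds 1 NF-kB match and Cxcl14 1 ISRE match. These are matches of letters, not measured binding.

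Per array, the share of probes that cleared background by the scanner's own test ran between 42.1 and 69.6%, and replicates correlated at r = 0.9674 to 0.9926 across genes, which are not independent replicates. Levels are log2 signals minus the array's 75th percentile, so 0 is the level of that percentile and members not above background mostly lay near -6. Each slide held the 4 times of 1 replicate of 1 line. The sample labels name no slide run, so a run was inferred: a gap of over 100 between slide serial numbers was taken to start another. By this rule the slides of Tbc1d23 replicates 1 and 2 form another run than those of Tbc1d23 replicate 3 and all CAT replicates. Line differences are therefore also given within that shared run (1 Tbc1d23 array against 3 CAT arrays). Neither of the 2 Tbc1d23 probes that passed the filter was called different between lines at 0 h (0.03 ± 0.21, adjusted p = 0.933, and 0.35 ± 0.18, adjusted p = 0.114; SE). Neither was called at 1 h. The second was higher by 0.998 ± 0.18 at 3 h (adjusted p = 0.000114) and by 0.49 ± 0.18 at 5 h (0.0261), and the first differed by 0.47 ± 0.21 at 3 h (0.0687) and -0.18 ± 0.21 at 5 h (0.486); which part of Tbc1d23 the construct carries is not stated in the labels, and a probe outside it checks nothing. At 0 h, 9 of 10 macrophage markers were above background on all 3 arrays of both lines, and none of 4 epithelial or 3 endothelial markers was in either line. Each of these 7 was above background on 1 or 2 Tbc1d23 arrays and on no CAT array. The only 1 tested, the endothelial Cdh5, was at least 3.08-fold higher in the Tbc1d23 line at 0 h (adjusted p = 1.77e-06). Cdh5 passed the filter only through an LPS group, so this comparison can be partly set by the filter. Markers above background on all 3 arrays at 0 h numbered 1 of 6 granulocyte (S100a8), 1 of 4 T and NK cell (Cd3e), 1 of 3 dendritic, 0 of 7 fibroblast and 0 of 3 B cell markers in the Tbc1d23 line, against 1 (Mpo), 2, 3, 2 and 1 in the CAT line.

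Of the 9 members, 7 cleared background on every array of some group and so entered the test of 15099 gene names. Cxcl1 and Cxcl12 did not. A member that passed only through a group where it is bright had to differ, so the counts below describe the tested members and support nothing by themselves. A gene is called where limma's Benjamini-Hochberg adjusted p over all tested names is under 0.05. Where a group was dim on all 3 arrays, its fold is a bound, "at least N-fold", set against the higher of the lowest clear signal of each array and the probe's own signal. In these bulk cultures, fewer cells making a chemokine and less RNA per cell cannot be told apart.

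With the main processing, Cxcl2, Cxcl10 and Cxcl11 read higher in the Tbc1d23 line than in the CAT line before LPS. Of the 7 tested members, 6 were called lower there at 3 h and all 7 at 5 h. At 0 h, 4 of 7 members were called (3 higher, 1 lower), against 45.2% of all tested genes. With normexp background correction 2 were called at 0 h, without Cxcl2 and Cxcl11. With median scaling Cxcl10 was not called at 0 h (0.75, adjusted p = 0.0877). None of the 3 higher calls at 0 h thus held under every alternative. At 1 h 3 of 7 were called, all lower, against 21.2% of all genes called lower. At 3 h the count was 6 of 7, all lower, against 23.7%, and at 5 h 7 of 7, all lower, against 23.5%. The median difference over the 7 members was 0.53 at 0 h, -0.73 at 1 h, -1.88 at 3 h and -2.95 at 5 h, while that of all tested genes stayed between 0.05 and 0.10. In the CAT line LPS raised 4, 6 and 7 of 7 members at 1, 3 and 5 h, against 3.65%, 16.1% and 18.3% of all genes. In the Tbc1d23 line it raised 2, 4 and 4, against 0.834%, 3.48% and 3.02%, and it lowered none in either line. These shares come from the fit without pairing. With each line's replicate as a block, 217, 1105 and 1012 of all genes were called higher in the Tbc1d23 line, against 126, 526 and 456 without it. In the CAT line at 1 h, 949 were called higher with the block, against 551 without it. The LPS response itself was lower in the Tbc1d23 line for 3, 5 and 6 of 7 members at 1, 3 and 5 h, against 1.77%, 8.37% and 10.6% of all genes.

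**Figure D1:**
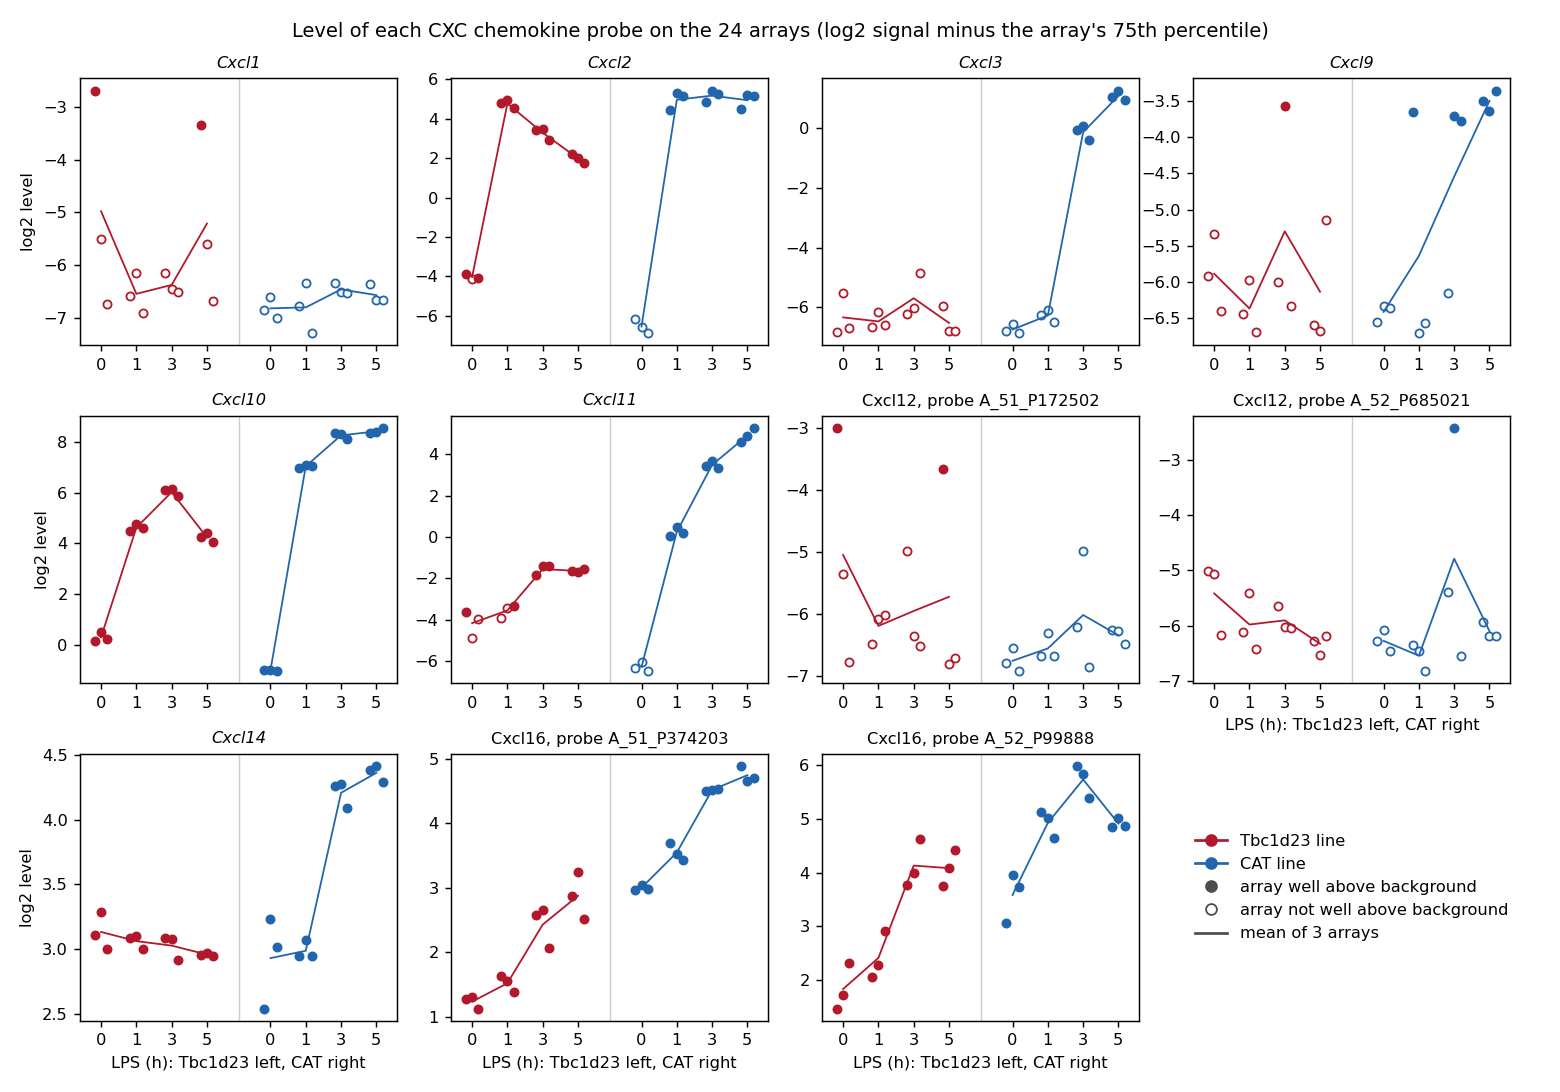
Level of every CXC chemokine probe (y, log2 signal minus the array's 75th percentile) on each array against hours of LPS (x), Tbc1d23 line left and CAT line right in each panel; filled points are well above background, open points are not, and lines join the means of 3 arrays. Cxcl2 falls after 1 h on all Tbc1d23 arrays, to 1.99 at 5 h on average, against 4.94 in the CAT line.

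**Figure D2:**
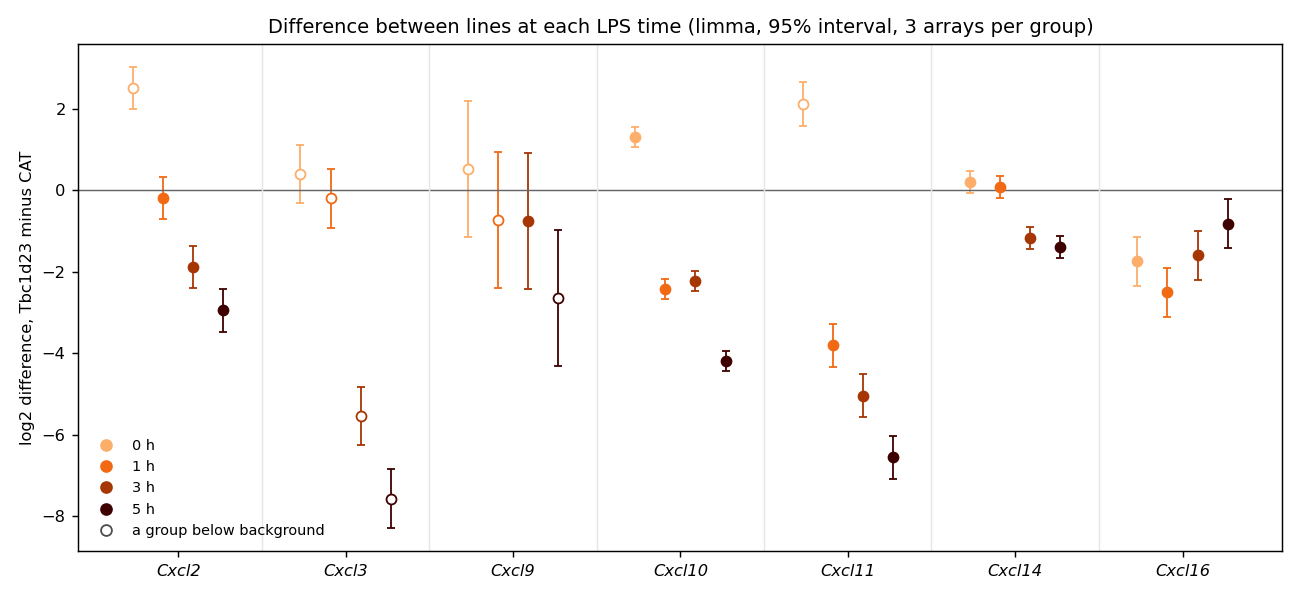
Difference between the Tbc1d23 and CAT lines (y, log2) for the 7 tested members (x) at 0, 1, 3 and 5 h of LPS; points are limma estimates with 95% intervals, and open points involve a group below background. At 5 h all 7 points lie below 0.

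Cxcl2, a neutrophil attractant induced within minutes to hours in macrophages, was the only CXCL1-type member measured well in both lines. At 0 h it lay at -3.89, -4.11 and -4.09 in the Tbc1d23 line, above background on 2 of 3 arrays, against -6.18, -6.58 and -6.87 in the CAT line, above background on none. At 1 h it lay at 4.79, 4.97 and 4.54 in the Tbc1d23 line, against 4.43, 5.30 and 5.14 in the CAT line. So the lines stood apart before LPS and overlapped 1 h after it. At 3 h the values were 3.44, 3.47 and 2.94 in the Tbc1d23 line, against 4.84, 5.43 and 5.24 in the CAT line. At 5 h they were 2.20, 2.00 and 1.76 in the Tbc1d23 line, against 4.48, 5.18 and 5.14 in the CAT line. Every Tbc1d23 array lay below every CAT array at both later times.

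Cxcl2 was at least 1.66-fold higher in the Tbc1d23 line at 0 h (adjusted p = 1.62e-07), a call lost with normexp background correction (0.16, adjusted p = 0.638). At 1 h the difference was -0.19 ± 0.25 (SE, n = 3 each; 95% interval -0.71 to 0.33; adjusted p = 0.568), so the 1 h levels did not differ beyond their error. It was lower in the Tbc1d23 line at the later times, with -1.88 ± 0.25 at 3 h (adjusted p = 4.1e-06) and -2.95 ± 0.25 at 5 h (1.05e-08), a 7.72-fold gap at 5 h. Within the shared slide run the differences were 2.45, -0.42, -2.23 and -3.18 at 0, 1, 3 and 5 h. In the Tbc1d23 line LPS raised Cxcl2 by 8.80 ± 0.25 at 1 h, 7.32 ± 0.25 at 3 h and 6.02 ± 0.25 at 5 h. Each later step was a fall there, of log2 -1.48 ± 0.25 between 1 and 3 h (adjusted p = 0.000697) and -1.30 ± 0.25 between 3 and 5 h (0.00996). Within the shared run, with 1 Tbc1d23 array at each time, neither fall was called (-1.60, adjusted p = 0.206, and -1.18, adjusted p = 0.838). The second was not called without Tbc1d23 3 h replicate 1 (adjusted p = 0.0664), 3 h replicate 2 (0.0698) or 5 h replicate 3 (0.0596), or after quantile normalization (0.235). CAT cells raised it at least 843-fold at 1 h, 976-fold at 3 h and 830-fold at 5 h, and neither step was called (0.21 ± 0.25, adjusted p = 0.645, and -0.23 ± 0.25, adjusted p = 0.721). The LPS response was at least 1.89-, 6.12- and 12.8-fold smaller in the Tbc1d23 line at 1, 3 and 5 h (adjusted p = 6.94e-05, 2.91e-08 and 1.01e-09). The 1 h call was lost after quantile normalization (-1.81, adjusted p = 0.117) and with normexp background correction (-0.29, adjusted p = 1).

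Cxcl3, a further Cxcr2 ligand, was the member with no clear signal in the Tbc1d23 line at any time. It was above background on 0 of 12 Tbc1d23 arrays, whose levels ran between -6.81 and -4.84. CAT arrays were also dim at 0 and 1 h, between -6.85 and -6.08. They then reached -0.08, 0.05 and -0.42 at 3 h and 1.03, 1.23 and 0.91 at 5 h. It was thus a late gene in the CAT line, up at least 24.4-fold at 3 h and 56.5-fold at 5 h over 0 h, with a further rise of 1.21 ± 0.34 between 3 and 5 h (adjusted p = 0.0193). That last rise was not called without CAT 5 h replicate 2 (adjusted p = 0.075) or CAT 3 h replicate 3 (0.0755). Cxcl3 was at least 19.7-fold lower in the Tbc1d23 line at 3 h (adjusted p = 1.8e-10) and at least 55.3-fold lower at 5 h (adjusted p = 1.55e-12). Within the shared run the measured differences were -4.68 and -7.86. The response to LPS differed between lines at 3 and 5 h (adjusted p = 3.74e-08 and 4.74e-10), with no fold because Cxcl3 was dim in the Tbc1d23 line throughout. Cxcl3 passed the filter only through the CAT line at 3 and 5 h, so its tests against those groups are partly set by the filter.

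Cxcl1, often called KC, stayed at background on 22 of 24 arrays. The exceptions were Tbc1d23 replicate 1 at 0 h (-2.69) and at 5 h (-3.34), which share a slide. All CAT arrays lay between -7.29 and -6.34 at every time. No difference was tested for it, and a rise such as that of Cxcl2 was not detectable for it in either line.

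Cxcl10, which calls in activated T cells, was above background on all 24 arrays. At 0 h it lay at 0.16, 0.48 and 0.24 in the Tbc1d23 line, against -0.986, -1.004 and -1.029 in the CAT line. At 1 h it lay at 4.48, 4.77 and 4.61 in the Tbc1d23 line, against 6.98, 7.09 and 7.05 in the CAT line. The order of the lines had therefore turned within 1 h, with no overlap at either time. At 3 h the levels were 6.08, 6.13 and 5.85 in the Tbc1d23 line, against 8.36, 8.31 and 8.11 in the CAT line. At 5 h they were 4.25, 4.42 and 4.03 in the Tbc1d23 line, against 8.33, 8.38 and 8.53 in the CAT line. The Tbc1d23 arrays at 5 h thus fell below their own 3 h values, while the CAT arrays at 5 h overlapped theirs.

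Cxcl10 differed between lines by 1.30 ± 0.12 at 0 h (adjusted p = 4.83e-08), -2.42 ± 0.12 at 1 h (9.07e-12), -2.24 ± 0.12 at 3 h (1.6e-11) and -4.18 ± 0.12 at 5 h (1.68e-15). The 0 h call was lost when arrays were scaled to their median (0.75, adjusted p = 0.0877), a setting that moved the median difference of all genes to -0.45. Within the shared run the differences were 1.24, -2.43, -2.41 and -4.38. LPS raised Cxcl10 in the Tbc1d23 line by 4.33 ± 0.12, 5.73 ± 0.12 and 3.94 ± 0.12 at 1, 3 and 5 h. Between 3 and 5 h it fell there, with a log2 change of -1.79 ± 0.12 (adjusted p = 5.03e-08), against 0.16 ± 0.12 in the CAT line (adjusted p = 0.516). The LPS response was smaller in the Tbc1d23 line, with differences of -3.72 ± 0.17, -3.54 ± 0.17 and -5.48 ± 0.17 at 1, 3 and 5 h (adjusted p at most 6.96e-11).

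Among members measured in both lines, Cxcl11, another Cxcr3 ligand, had the largest line difference at 3 and 5 h, and at 1 h with the main processing. At 0 h it lay at -3.65, -4.90 and -3.98 in the Tbc1d23 line, above background on 1 of 3 arrays, against -6.33, -6.07 and -6.48 in the CAT line. At 1 h it lay at -3.90, -3.44 and -3.33 in the Tbc1d23 line, again above background on 1 of 3 arrays, against 0.07, 0.47 and 0.22 in the CAT line. Its 0 h order turned as that of Cxcl10 did. At 3 h the levels were -1.86, -1.40 and -1.40 in the Tbc1d23 line, against 3.44, 3.68 and 3.35 in the CAT line. At 5 h they were -1.65, -1.71 and -1.57 in the Tbc1d23 line, against 4.59, 4.89 and 5.26 in the CAT line. The Tbc1d23 arrays levelled off after 3 h while the CAT arrays went on rising.

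Cxcl11 was at least 1.503-fold higher in the Tbc1d23 line at 0 h (adjusted p = 1.72e-06). It was then lower, with differences of -3.81 ± 0.25 at 1 h (adjusted p = 7.6e-10), -5.04 ± 0.25 at 3 h (9.41e-12) and -6.56 ± 0.25 at 5 h (1.64e-13), with -3.58, -4.89 and -6.49 within the shared run. Over the alternatives Cxcl10 ran from -2.55 to -2.28 at 1 h and Cxcl11 from -3.93 to -1.99. The size and rank of Cxcl11 at 1 h thus depend on the processing. In the Tbc1d23 line LPS raised it by 2.62 ± 0.25 at 3 h and 2.53 ± 0.25 at 5 h, and the change at 1 h was not called (0.62 ± 0.25, adjusted p = 0.464), though it was after quantile normalization (1.41, adjusted p = 0.000853). With LPS, CAT cells raised it at least 32.3-fold at 1 h, 305-fold at 3 h and 818-fold at 5 h. The step between 3 and 5 h was 1.42 ± 0.25 in the CAT line (adjusted p = 0.000477), against -0.09 ± 0.25 in the Tbc1d23 line (adjusted p = 1). The response was at least 21.1-, 49.6- and 142-fold smaller in the Tbc1d23 line at 1, 3 and 5 h (adjusted p at most 2.38e-09). With normexp background correction, which sets dim signals near a common floor, the 0 h difference of Cxcl11 was not called (0.17, adjusted p = 0.474).

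Cxcl9, which answers mainly to interferon-γ, barely left background. It was above background on 7 of 24 arrays, among them all 3 CAT arrays at 5 h (-3.50, -3.63 and -3.35). Of the other 4, 1 was a Tbc1d23 array, 3 h replicate 2 (-3.57). Tbc1d23 arrays at 5 h lay at -6.60, -6.68 and -5.14, below all CAT arrays of that time. The gene entered the test only through the CAT line at 5 h, so its comparisons with that group are partly set by the filter. Cxcl9 was at least 2.36-fold lower in the Tbc1d23 line at 5 h (adjusted p = 0.00907), but not called within the shared run (-1.65, adjusted p = 0.28) or with slide as a random block (adjusted p = 0.061). In the CAT line it was up at least 2.41-fold at 5 h (adjusted p = 0.00568). The response differed between lines at 5 h with an adjusted p of 0.0491, and that call was lost on leaving out any one of 17 of the 24 arrays (adjusted p of 0.0502 to 0.106).

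**Figure D3:**
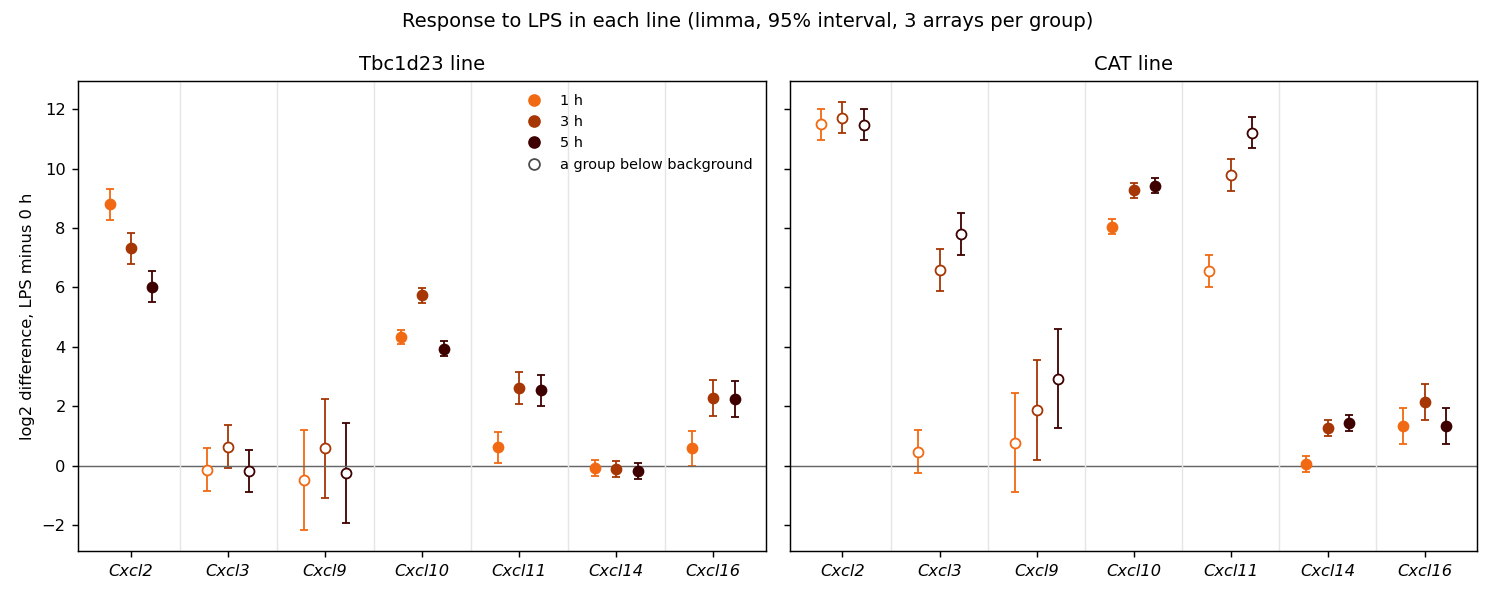
Change from 0 h (y, log2) of the 7 tested members (x) after 1, 3 and 5 h of LPS, Tbc1d23 line left and CAT line right; points are limma estimates with 95% intervals, and open points involve a group below background, whose measured difference depends on the background. Cxcl2 stands at 8.80, 7.32 and 6.02 at 1, 3 and 5 h in the Tbc1d23 line, and Cxcl14 near 0 at all 3 times there.

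Cxcl14, known as a constitutive chemokine, was above background on all 24 arrays, also without LPS. At 0 h it lay at 3.11, 3.29 and 3.00 in the Tbc1d23 line, against 2.54, 3.24 and 3.02 in the CAT line. At 1 h it lay at 3.08, 3.10 and 3.00 in the Tbc1d23 line, against 2.95, 3.07 and 2.95 in the CAT line. The lines overlapped at both of these times. At 3 h the levels were 3.09, 3.08 and 2.92 in the Tbc1d23 line, against 4.26, 4.27 and 4.09 in the CAT line. At 5 h they were 2.96, 2.98 and 2.95 in the Tbc1d23 line, against 4.38, 4.41 and 4.29 in the CAT line. Tbc1d23 arrays thus stayed between 2.92 and 3.29 throughout, while every CAT array at 3 and 5 h lay above all CAT arrays at 0 and 1 h.

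The LPS response of Cxcl14 in the Tbc1d23 line was -0.07 ± 0.13, -0.11 ± 0.13 and -0.17 ± 0.13 at 1, 3 and 5 h (adjusted p at least 0.669; the 95% interval at 5 h was -0.44 to 0.10). In the CAT line it was 0.06 ± 0.13 at 1 h (adjusted p = 0.976), 1.27 ± 0.13 at 3 h (1.65e-07) and 1.43 ± 0.13 at 5 h (2.65e-08). The lines differed by 0.20 ± 0.13 at 0 h (adjusted p = 0.218), 0.07 ± 0.13 at 1 h (0.678), -1.18 ± 0.13 at 3 h (4.13e-07) and -1.40 ± 0.13 at 5 h (3.53e-08). The last 2 were -1.28 and -1.42 within the shared run. The response differed between lines by -1.38 ± 0.18 at 3 h (adjusted p = 1.7e-05) and -1.60 ± 0.18 at 5 h (1.76e-06), but with median scaling neither was called (-0.80, adjusted p = 0.295, and -1.31, adjusted p = 0.0674).

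Cxcl16, the membrane-bound member, was above background on all 24 arrays with both probes and lower in the Tbc1d23 line at every time. The probe used in the test (A_52_P99888, mm9 chromosome 11, 70267780 to 70267839) read 1.48, 1.73 and 2.32 in the Tbc1d23 line at 0 h, against 3.06, 3.95 and 3.73 in the CAT line. At 1 h it read 2.07, 2.28 and 2.91 in the Tbc1d23 line, against 5.12, 5.00 and 4.64 in the CAT line. The lines stood apart at both times. At 3 h it read 3.78, 3.997 and 4.61 in the Tbc1d23 line, against 5.97, 5.82 and 5.38 in the CAT line. At 5 h it read 3.75, 4.08 and 4.41 in the Tbc1d23 line, against 4.84, 5.02 and 4.86 in the CAT line. Again no Tbc1d23 array reached a CAT array, though the gap was narrower. The differences were -1.74 ± 0.29 at 0 h, -2.50 ± 0.29 at 1 h, -1.59 ± 0.29 at 3 h and -0.83 ± 0.29 at 5 h (adjusted p = 7.05e-05, 1.12e-06, 0.000136 and 0.0213). The 5 h call was lost within the shared run (-0.49, adjusted p = 0.263), with slide run as a block (-0.38, adjusted p = 0.155), without Tbc1d23 5 h replicate 1 (adjusted p = 0.0983) and without CAT 5 h replicate 2 (0.0619).

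The other Cxcl16 probe (A_51_P374203), whose mm9 span from 70269521 to 70272262 crosses an intron, gave a steadier gap. It read -1.77 ± 0.16, -2.03 ± 0.16, -2.09 ± 0.16 and -1.87 ± 0.16 at 0, 1, 3 and 5 h (adjusted p at most 4.68e-08 over all kept probes). The probes also disagreed in time course. In the CAT line the tested probe averaged 5.72 at 3 h and 4.91 at 5 h, whereas the other averaged 4.52 at 3 h and 4.75 at 5 h. LPS raised Cxcl16 in both lines with both probes: by 2.24 ± 0.29 in the Tbc1d23 line at 5 h and 1.32 ± 0.29 in the CAT line with the tested one, and by 1.64 ± 0.16 and 1.75 ± 0.16 with the other. The response was not called different between lines at any time with either probe (at 5 h 0.92 ± 0.41, adjusted p = 0.122, and -0.10 ± 0.22, adjusted p = 0.834). With each line's replicate as a block the tested probe's 5 h difference in response was called (adjusted p = 0.00895), as was its fall of -0.82 between 3 and 5 h in the CAT line (adjusted p = 0.00257, against 0.0641 without the block).

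Cxcl12 was at background with both probes: the first was above it on the same 2 Tbc1d23 arrays as Cxcl1 (-3.01 at 0 h and -3.66 at 5 h), and the second only on CAT 3 h replicate 2 (-2.43). It was not tested.

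Between LPS times, 4 of 7 members were called from 1 to 3 h in the Tbc1d23 line (3 higher, 1 lower), against 5.29% of all genes, and 2 of 7 from 3 to 5 h, both lower (Cxcl2 and Cxcl10), against 0.656%. In the CAT line 5 of 7 were called from 1 to 3 h, all higher, against 15.8%, and 2 of 7 from 3 to 5 h, both higher (Cxcl3 and Cxcl11), against 6.64%. With each line's replicate as a block, 316 of all genes, against 99 without it, were called lower from 3 to 5 h in the Tbc1d23 line, where Cxcl2 and Cxcl10 were again the members called, and in the CAT line Cxcl16 was called lower as well. By group mean, Cxcl2 was highest in the CAT line at 3 h, Cxcl10, Cxcl3, Cxcl9, Cxcl11 and Cxcl14 in the CAT line at 5 h, and Cxcl16 in the CAT line at 3 h with the tested probe but at 5 h with the other. The 3 LPS groups of the CAT line overlapped for Cxcl2, the 3 and 5 h groups of that line for Cxcl10, and no such overlap was seen for Cxcl3 or Cxcl11.

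Setting CXCL1-type against interferon-linked members gave no single answer. The mean log2 of Cxcl1, Cxcl2 and Cxcl3 minus that of Cxcl9, Cxcl10 and Cxcl11, relative to the CAT 0 h mean, was 0.27 ± 0.56 (SD, n = 3), 1.15 ± 0.18, -0.52 ± 0.65 and 0.06 ± 1.00 in the Tbc1d23 line at 0, 1, 3 and 5 h. CAT values were -1.13 ± 0.68, -0.76 ± 0.41 and -1.35 ± 0.20 at 1, 3 and 5 h. Cxcl1, Cxcl9 and, in the Tbc1d23 line, Cxcl3 enter this mean at background. Cxcl2 minus Cxcl10 alone was 1.21 ± 0.27, 5.68 ± 0.19, 2.80 ± 0.15 and 3.29 ± 0.19 in the Tbc1d23 line, and 3.45 ± 0.41, 2.44 ± 0.37 and 2.05 ± 0.34 in the CAT line at 1, 3 and 5 h. Cxcl2 was at background in the CAT line at 0 h, so the size of each value depends on that background, and the 0 h Tbc1d23 value was 0.22 ± 0.75 after quantile normalization. The balance of Cxcl2 against Cxcl10, a pair chosen after seeing the data, was thus tilted most toward Cxcl2 at 1 h in both lines, on every array. The tilt was larger in the Tbc1d23 line. The 3-against-3 balance was also highest at 1 h in the Tbc1d23 line (1.15), but not in the CAT line (-1.13 at 1 h, against -0.76 at 3 h). These balances are a description with no test.

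**Figure D4:**
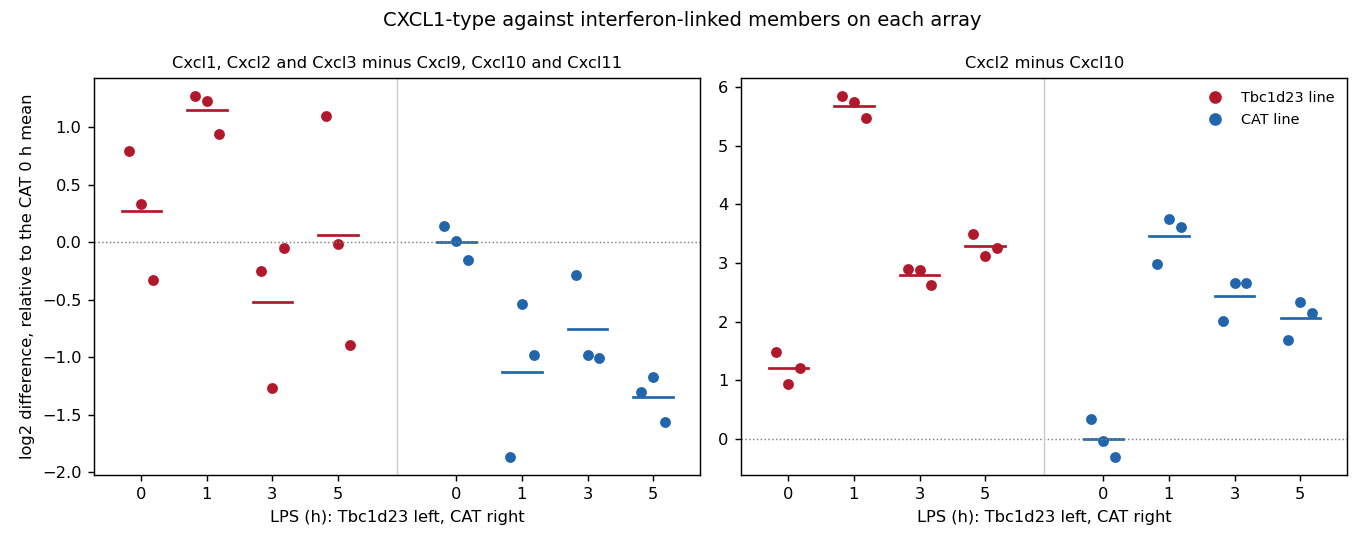
Balance of CXCL1-type against interferon-linked members on each array (y, log2 difference relative to the CAT 0 h mean) by hours of LPS (x), Tbc1d23 line left and CAT line right; points are arrays and bars are means of 3. In the right panel, Cxcl2 minus Cxcl10, the 1 h Tbc1d23 arrays (5.47 to 5.84) lie above all others.

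Across the 8 group means, the names closest to each member, among 2559 whose means span a log2 of at least 2, were as follows. For Cxcl2 they were Nfkbia, the NF-kB inhibitor that NF-kB itself induces (Pearson r = 0.982 over 8 groups), Phlda1 (0.976) and Gpr84 (0.965). For Cxcl10 they were Socs3, a feedback inhibitor of cytokine signalling (0.988), Marcksl1 (0.985) and Clec4e (0.983), and for Cxcl11 the chemokines Ccl7 (0.983) and Ccl2 (0.983) and then Serpind1 (0.979). Cxcl3 and Cxcl14 shared their closest names, Il33, Ccn4 and Parp14 (0.992 to 0.998), and correlated with each other at 0.993. Cxcl3 was at background in 6 of the 8 groups, so its 2 bright groups, CAT at 3 and 5 h, set its values of r. Cxcl16 was closest to Olr1, an oxidised lipoprotein receptor (0.973), Tlr2 (0.952) and Tnip3 (0.95). Cxcl9 was closest to Ralgds (0.973), Twist2 (0.964) and Gbp2b (0.963), and it was above background on all 3 arrays only in the CAT line at 5 h. Among members, Cxcl2 correlated with Cxcl10 at 0.947 but with Cxcl3 at 0.472. These groups share lines and slides, so the values describe likeness of pattern and no more.

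Of the genes around these chemokines, receptors and ligand-processing genes were listed with the pathway's 3 arms. Among the other CXC ligands, Pf4, the platelet chemokine that macrophages also make, was the 1 of 6 tested, and it was lower in the Tbc1d23 line at all 4 times (-1.38 ± 0.23 at 0 h and -1.98 ± 0.23 at 5 h). Cxcl5, Cxcl13, Cxcl15, Cxcl17 and Ppbp did not pass the filter. Of 6 receptors and scavengers tested out of 10 listed, 2 were higher and 4 lower in the Tbc1d23 line at 5 h, when 4522 of all 15099 tested genes were higher and 3548 lower. Cxcr4, the receptor of Cxcl12, was at least 8.22-fold higher at 3 h and 12.1-fold higher at 5 h, and Cxcr3, the receptor of Cxcl9, Cxcl10 and Cxcl11, was higher by 2.31 ± 0.22 at 5 h. Cxcr6, the receptor of Cxcl16, was at least 2.37-fold lower at 5 h, and the scavenger-like Ccrl2 was lower, at -5.29 ± 0.25. Cxcr6 was above background on no array of either line at 0 h. It entered the test only through an LPS group, so its comparison can be partly set by the filter. Cxcr1 and Cxcr2 did not pass the filter. Of 5 genes tested, out of 6 listed, that trim or destabilise chemokines or their transcripts, 1 was higher and 2 were lower at 5 h. The higher one was Adam10, which sheds membrane-bound Cxcl16 (0.99 ± 0.23). Zfp36, whose protein speeds decay of such messages, was lower at 5 h (-3.24 ± 0.14), and Mmp9, a protease that cleaves CXC chemokines, was too (-2.58 ± 0.29). Like Cxcr6, Mmp9 entered the test only through an LPS group.

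The NF-kB arm and the interferon arm were both lower in the Tbc1d23 line after LPS, and the interferon arm was lower before it too. Of 11 NF-kB genes tested, 8 were lower and 0 higher at 1 h, 10 lower and 1 higher at 3 h and 9 lower and 1 higher at 5 h, the higher one being Rela (0.31 ± 0.08 at 3 h and 0.42 ± 0.08 at 5 h). Of all tested genes, 21.2%, 23.7% and 23.5% were lower at 1, 3 and 5 h. Tnfaip3, which shuts off NF-kB signalling, differed by -5.59 ± 0.13 at 5 h, Nfkbie by -2.77 ± 0.13 and Nfkbiz by -2.16 ± 0.20. Of 16 interferon genes, 8 were lower and 3 higher at 0 and again at 1 h, with medians of -0.45 and -0.46. At 3 and 5 h, 12 were lower and 1 higher. At 0 h, 45.2% of all tested genes were called in either direction (3788 higher and 3044 lower). Ifnb1, which encodes interferon-β, differed by -3.99 ± 0.24 at 1 h, -5.11 ± 0.24 at 3 h and -3.82 ± 0.24 at 5 h. It was above background on no array at 0 h and entered the test only through an LPS group, so these comparisons can be partly set by the filter. Irf1 (-4.18 ± 0.18) and Irf7 (-4.53 ± 0.23), factors that bind interferon-type elements, and Stat2 (-3.42 ± 0.15) were lower at 5 h. The medians at 5 h were -1.18 for the NF-kB arm, -1.08 for the interferon arm and -0.14 for 11 TLR4 pathway genes, of which 5 were lower and 0 higher, against 0.10 over all tested genes.

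**Figure D5:**
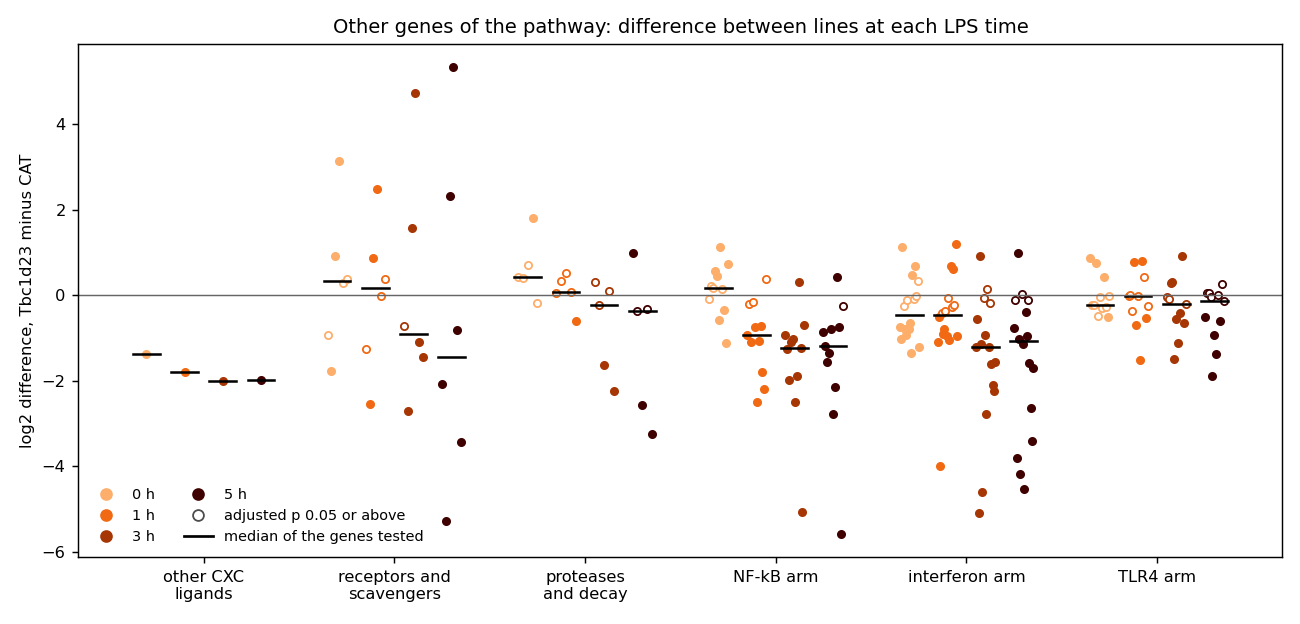
Difference between the Tbc1d23 and CAT lines (y, log2) for each tested gene of 6 pathway lists (x) at 0, 1, 3 and 5 h of LPS; filled points are called, open points are not, and bars are list medians. The NF-kB arm's median is 0.18 at 0 h and -1.18 at 5 h, and that of the interferon arm -0.45 at 0 h and -1.08 at 5 h.

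In response to LPS, 10 of 11 NF-kB genes were raised in the Tbc1d23 line at 5 h with a median of 1.88, against 10 of 11 with a median of 3.32 in the CAT line. Of the 16 interferon genes, 5 were raised in the Tbc1d23 line at 5 h with a median of 0.17, against 10 with a median of 0.90 in the CAT line, where 2 fell. Over all tested genes, 3.02% were raised at 5 h in the Tbc1d23 line and 18.3% in the CAT line. The response was lower in the Tbc1d23 line for 1 interferon gene and higher for 1 at 1 h (median -0.09). At 5 h it was lower for 7 and higher for 3 (median -0.41). That of the 11 NF-kB genes was lower for 7 and higher for 0 at both times. Of all genes, 1.77% and 10.6% were lower in response at 1 and 5 h. Irf7 changed by -0.03 ± 0.23 (adjusted p = 0.999) and Stat2 by -0.46 ± 0.15 (adjusted p = 0.088) in the Tbc1d23 line, against 3.83 ± 0.23 and 3.28 ± 0.15 in the CAT line. Marker genes differed between the lines as well. The summed level of 3 dendritic cell markers ran from -0.58 to -0.39 in the Tbc1d23 line at 5 h, against 2.34 to 2.65 in the CAT line. That sum was led by Itgax, and of the 3 markers 1 was called lower and 2 were not called (median -0.24). The sums stood apart before LPS too, at -1.70 to -0.83 against 0.17 to 0.65. Of 10 macrophage markers, 6 were lower at 5 h, among them Cybb (-4.06 ± 0.11), while 5 were lower and 2 higher at 0 h. Of 4 fibroblast markers tested, 3 were lower at 5 h (median -2.84), against 1 lower and 1 higher at 0 h. Their part in the chemokine differences was not tested.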

How the data were processed

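RNA of the 24 samples was labelled with Cy3 and hybridised to 1-colour Agilent arrays. The deposited scanner files hold spot intensity values made with Agilent Feature Extraction 10.7.1.1, background-subtracted and detrended, with surrogates for low signals, per the file headers. The deposited series table holds log2 values whose base was read from their fit to the scanner signals; the submitters' processing notes name RMA and Partek.

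Processed signals were taken as log2 minus each array's 75th percentile, without control and outlier spots. A probe was kept (21964 of 41174) where every array of some group flagged it as clear of background, and each of 15099 gene names was read from its probe of highest mean. A model of 8 group means was run in limma 3.58.1 (lmFit, eBayes; R 4.3.3), tested on simulated data, with Benjamini-Hochberg adjustment; an exact permutation test of 3 against 3 cannot go below p = 0.1. The number of arrays limits the precision. Same-numbered arrays of a line share a slide and deviated together (r = 0.1861 to 0.8259 over 36 pairs), so they pair within a line; across lines they did not (-0.4339 to 0.02884 over 48 pairs). The members and lists were chosen with earlier results of these data known. Named genes are all members, the listed pathway genes, Tbc1d23 and, per tested member, the 3 names whose group means correlate best with it. Alternatives covered scaling, background, filters, probes, slides and left-out arrays.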

Additional observations from a re-analysis of the deposited data

Results flagged for a closer look

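The LPS response of the Tbc1d23 line minus that of the CAT line passed limma's test (Benjamini-Hochberg adjusted p) for 14 combinations of member and time, all lower in the Tbc1d23 line. For Cxcl2 the difference in response was -2.70 at 1 h (adjusted p = 6.94e-05), -4.39 at 3 h (2.91e-08) and -5.46 at 5 h (1.01e-09) on the log2 scale. Cxcl10 gave -3.72 at 1 h (adjusted p = 6.96e-11), -3.54 at 3 h (2.26e-11) and -5.48 at 5 h (3.4e-14). For Cxcl11 the values were -5.93, -7.17 and -8.68 (adjusted p = 2.38e-09, 5.42e-11 and 2.2e-12). Cxcl3 gave -5.94 at 3 h and -7.98 at 5 h (adjusted p = 3.74e-08 and 4.74e-10). Cxcl14 gave -1.38 at 3 h and -1.60 at 5 h (adjusted p = 1.7e-05 and 1.76e-06), and Cxcl9 -3.17 at 5 h (adjusted p = 0.0491). Those of Cxcl2, Cxcl3, Cxcl9 and Cxcl11 are measured differences that involve groups at background, whose size depends on the background. Cxcl3 and Cxcl9 passed the filter only through CAT groups in which they were bright, so their tests are partly set by the filter. The Cxcl2 call at 1 h was lost after quantile normalization (adjusted p = 0.117), with the deposited values (0.102) and with normexp background correction (-0.29). With median scaling the calls of Cxcl14 at 3 and 5 h (0.295 and 0.0674) and of Cxcl9 at 5 h (0.142) were lost.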

How the results depend on the processing

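The line differences of Cxcl10 and Cxcl11 at 1, 3 and 5 h, of Cxcl2, Cxcl3 and Cxcl14 at 3 and 5 h, and the differences in LPS response of Cxcl10 and Cxcl11 at all times kept their direction and their call under every alternative in which they were tested. Cxcl3 passed the filter only through the CAT line at 3 and 5 h, so its differences at those times are partly set by the filter under each setting. Dim signals limit the 0 h levels of Cxcl2 and Cxcl11, Cxcl3 in the Tbc1d23 line and all of Cxcl9. Calls were also lost for members above background on all 24 arrays. With median scaling these were Cxcl10 at 0 h and the Cxcl14 responses at 3 and 5 h, and with slide run as a block Cxcl16 at 5 h. Causes of the changes below were not tested, except that the filter on all arrays tests fewer members by construction. Median scaling moved the median of all genes to -0.45 for the lines at 0 h.

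Among members, median scaling gave Cxcl10 0.75 between lines at 0 h, Cxcl14 -0.34 at 0 h and -0.043 at 1 h, Cxcl14 in the Tbc1d23 line 0.49, 0.45 and 0.083 at 1, 3 and 5 h, Cxcl16 0.64 (CAT, 3 against 1 h) and Cxcl3 1.20 (CAT, 5 against 3 h). Its differences in response were 0.30, -0.80 and -1.31 for Cxcl14 at 1, 3 and 5 h and -2.88 for Cxcl9 at 5 h. Normexp gave 0.16 for Cxcl2 and 0.17 for Cxcl11 at 0 h, -0.072 for Cxcl11 in the Tbc1d23 line at 1 h, -0.84 for Cxcl16 (CAT, 5 against 3 h), and responses of -0.29 for Cxcl2 at 1 h and -0.59 for Cxcl9 at 5 h. Quantile normalization gave 1.41 for Cxcl11 in the Tbc1d23 line at 1 h, -1.23 for Cxcl2 and 0.011 for Cxcl16 (Tbc1d23, 5 against 3 h), -0.0041 for Cxcl2 and 0.58 for Cxcl16 (CAT, 3 against 1 h) and -0.86 for Cxcl16 (CAT, 5 against 3 h). Its responses were -1.81 for Cxcl2 at 1 h, and -2.39 for Cxcl9 and 1.11 for Cxcl16 at 5 h. The deposited values gave, in the same order, 1.42, -1.24, 0.0064, 0.60 for Cxcl16, -0.84, -1.86, -2.40 and 1.02, and -0.0019 for Cxcl14 between lines at 1 h. The mean of probes turned Cxcl16 to 0.20 (Tbc1d23, 5 against 3 h) and to -0.088 in response at 3 h. With no filter, Cxcl16 (CAT, 3 against 1 h, 0.80) and the Cxcl9 response (-3.17) lost their calls.

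Slide run as a block gave -0.0035 for Cxcl14 at 1 h, -0.38 for Cxcl16 at 5 h, and calls for Cxcl16 (CAT, 5 against 3 h, -0.82) and its response at 5 h (0.92). Slide as a random block (correlation 0.568) ended the call of Cxcl9 at 5 h (-2.64) and made that of Cxcl9 in the CAT line at 3 h (1.87). Within the shared run, values were -1.65 for Cxcl9 and -0.49 for Cxcl16 at 5 h, 0.00198 for Cxcl14 (Tbc1d23, 1 against 0 h), -1.60 for Cxcl2 and 1.70 for Cxcl16 (Tbc1d23, 3 against 1 h), -1.18 for Cxcl2 and 0.023 for Cxcl14 (Tbc1d23, 5 against 3 h) and -1.66 for the Cxcl9 response.

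The replicate block by each line's replicate made the calls of Cxcl16 (CAT, 5 against 3 h, -0.82) and its response at 5 h (0.92), and changed no other member call. It raised the genes called after LPS to 704, 2527 and 2350 in the Tbc1d23 line, 2640 at 1 h in the CAT line, 2372 and 532 for the later Tbc1d23 steps, 6856 and 4423 for the CAT steps, and 879, 4579 and 6000 for the differences in response. The replicate block by the number shared across lines, which does not pair the samples, ended the call of the Cxcl9 response (-3.17) and made that of Cxcl16 (CAT, 5 against 3 h, -0.82).

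Members called fell to 2 at 0 h with normexp, to 1 for Tbc1d23 5 against 3 h after quantile normalization and with the deposited values, and to 1 for CAT 5 against 3 h with median scaling. The filter on all arrays left 2, 3 and 3 members called between lines at 0, 3 and 5 h, 1, 2 and 2 in the Tbc1d23 line, 2, 3 and 3 in the CAT line, 2 and 1 for the Tbc1d23 steps, 3 and 1 for the CAT steps, and 1, 2 and 2 in response. Genes called over all names changed as follows. Median scaling gave 3059, 4179 and 4699 between lines at 1, 3 and 5 h, 147, 481 and 222 in the Tbc1d23 line, 419, 2354 and 3201 in the CAT line, 166 and 32 for the Tbc1d23 steps, 1798 and 421 for the CAT steps and 70, 1108 and 1347 in response. No filter gave 10483 between lines at 0 h, 1372, 1653 and 1974 in the Tbc1d23 line and 515 for its first step, and the filter on all arrays 140 in the Tbc1d23 line at 1 h. Slide run as a block gave 385, 1621 and 1552 in the Tbc1d23 line, 1738 in the CAT line at 1 h, 1366 and 280 for the Tbc1d23 steps and 552 in response at 1 h. The random block gave 723, 2551, 2351, 2413, 2453, 588 and 931 for these, with 4269 for CAT 5 against 3 h and 4512 and 5799 in response at 3 and 5 h. Within the shared run, 460 and 363 were called in the Tbc1d23 line at 3 and 5 h, 280 and 74 for its steps, and 237 and 1645 in response at 1 and 3 h.

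Over the 24 fits that each left out 1 array, Cxcl14 ran from -0.14 to 0.0071 (Tbc1d23, 1 against 0 h), -0.14 to 0.21 (CAT, 1 against 0 h), -0.064 to 0.019 (Tbc1d23, 3 against 1 h) and -0.28 to 0.067 (response at 1 h). Cxcl16 ran from -0.22 to 0.19 (Tbc1d23, 5 against 3 h) and -0.095 to 0.41 (response at 3 h), and Cxcl2 from -0.051 to 0.38 (CAT, 3 against 1 h). Genes called ran from 525 to 846 and from 88 to 150 for the Tbc1d23 steps, members called from 1 to 2 for Tbc1d23 and from 1 to 3 for CAT 5 against 3 h, and the 3-against-3 balance of the Tbc1d23 line at 5 h from -0.45 to 0.54.

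Higher and lower calls between lines at 0 h were 3788 and 3044, against 3320 and 4129 after quantile normalization, 867 and 3797 with median scaling and 3254 and 4137 in the deposited values. In response they were 1255 and 1264 at 3 h and 1903 and 1602 at 5 h, against 1809 and 1120, and 2703 and 1388, after quantile normalization.

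Balances of Cxcl1 and Cxcl2 against Cxcl9 and Cxcl10 were 1.26, 2.96, 1.06 and 2.31 in the Tbc1d23 line at 0, 1, 3 and 5 h and 1.35, 0.46 and -0.31 in the CAT line at 1, 3 and 5 h. Those of Cxcl2 against Cxcl10 were 1.21, 5.68, 2.80 and 3.29 in the Tbc1d23 line and 3.45, 2.44 and 2.05 in the CAT line, a setting chosen after seeing the data, as were dim groups at their bound and the repair of 6 normexp fits.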
